A study of Mus musculus with 6 samples.

Results

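Interferon response genes were described in brain tissue of wild-type mice and of mice lacking Pla2g2e, a secreted phospholipase A2. The members were 35 genes named for this purpose, taken by their gene name in the array files with every probe they have, 47 of 39429 probes on the array. Gene expression was measured on 6 one-colour Agilent arrays, each hybridised with Cy3-labelled total RNA of 1 sample. The wild-type sham group held 3 samples of male C57BL/6N mice and the Pla2g2e knockout sham group held 3 samples of male Pla2g2e-/- mice on the same C57BL/6N background. The arrays are called WT1, WT2 and WT3 for wild type and KO1, KO2 and KO3 for knockout. Titles name all 6 as sham-operated, whereas the treatment text of every sample describes occlusion of a cerebral artery. Groups follow the titles, and the labels give neither age nor brain region. They do not say whether the deletion is constitutive or which exons it removes. Nor do they say whether each sample came from its own animal, so a p-value reflects spread among these samples alone, which can be technical.

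Interferons are secreted proteins that bind receptors on nearly every cell and signal through JAK kinases. Type I interferons activate a complex containing STAT2 and IRF9 that binds the interferon-stimulated response element, and interferon gamma acts through the gamma-activated site. The genes switched on this way encode sensors of foreign nucleic acid, enzymes and GTPases that act against viruses and other pathogens inside cells, and subunits of the immunoproteasome. OAS enzymes make short 2'-5' linked adenylate chains when they bind double-stranded RNA. In uninfected brain such genes keep a low tonic level, with microglia, endothelium and border macrophages among the cells that respond strongly.

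No interferon response gene passed the test between genotypes, and 1 wild-type sample, WT3, stood above the other arrays for most of these genes. Of the 35 members 34 could be tested, 15 of them with a difference above 0 and 19 with a difference below 0, where 53.1% of all genes lay below 0. The median difference of knockout minus wild type was -0.01 on the log2 scale, the same as the median of -0.01 over all 22578 genes tested. The count past an adjusted p of 0.05 (limma, Benjamini-Hochberg over all genes) was 0 of 34 members, against a background of 0% of all genes. At an unadjusted p under 0.05 there was 1 higher member, Oas1h, against 3.07% of all genes, and 0 lower members, against 9.35%. Groups did not overlap in 2 higher members, Oas1h and Irgm1, where 7.6% of all genes were higher in this way, and in 0 lower members, where 12.2% of all genes were lower (19.8% in either direction). The Oas1h probe was above background in the knockout samples only, so it could be tested only with a difference. Its place in both counts is therefore no support. Over probes above background on all arrays, 0 of 33 members had an unadjusted p under 0.05 in limma, against 12.09% of all genes. In that setting 1 member had groups that did not overlap, against 19.3% of all genes. WT3 gave the highest of the 6 values for 22 of 34 members, or 64.7%, against 27.6% of all genes.

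Values below are log2 signals relative to the 75th percentile of the same array, so 0 is the level of a fairly bright probe and 1 unit is a doubling. Signals of different probes depend on the probe, so their order served only to choose the probe of a gene and which genes are shown in full. On each array between 35288 and 36676 of 43020 non-control spots were well above background and 0 were saturated. WT1, WT2, WT3 and KO1 shared a slide, and KO2 and KO3 were on the other slide, so the slide is partly tied to genotype. The number of arrays limits the precision. Pla2g2e itself had 2 dim probes, which read -7.09, -7.26 and -6.67 in wild type (in the order WT1, WT2, WT3) against -7.07, -7.87 and -7.83 in knockout (KO1, KO2, KO3) for the brighter one. The other probe read -8.50, -8.59 and -9.15 against -8.42, -8.44 and -8.38. They differed in sign, and without the deleted exons being known neither checks the genotype. Of the markers of brain tissue, those for neurons, astrocytes and oligodendrocytes, 8 of 8 in each list were tested.

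The sequences shown first are those of the 2 Oas1h probes, because Oas1h gave the largest difference of the set. Only the brighter of these 2 probes was above background on any array. Both probes lie on chromosome 5 in the mm9 coordinates of the files, and 5' to 3' they read as follows.
Oas1h probe at 121312764 to 121312823: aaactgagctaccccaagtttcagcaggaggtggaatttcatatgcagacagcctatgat
Oas1h probe at 121321101 to 121321160: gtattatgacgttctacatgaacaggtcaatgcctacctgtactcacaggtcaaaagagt
Each is 60 bases long, with a GC content of 45.0% and 41.7%, and no other probe on the array has the same sequence. A frame without a stop codon runs through each of them. Whether a probe also binds transcripts of the closely related Oas1 copies was not tested, and the exon under it is not given because no mm9 annotation was used here.

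Promoters of 4 members are shown because they carry the 2 members with groups that did not overlap (Oas1h and Irgm1) and 2 classical type I targets described sample by sample (Isg15 and Oas1a). They are RefSeq windows of GRCm38.p6, from 250 bases before to 50 bases after the start site, in the direction of transcription. Capitals mark matches to the core of the interferon-stimulated response element, searched on both strands as GAAA, any 2 bases and GAAA again.
Isg15, chr4:156200769-156201068, minus strand: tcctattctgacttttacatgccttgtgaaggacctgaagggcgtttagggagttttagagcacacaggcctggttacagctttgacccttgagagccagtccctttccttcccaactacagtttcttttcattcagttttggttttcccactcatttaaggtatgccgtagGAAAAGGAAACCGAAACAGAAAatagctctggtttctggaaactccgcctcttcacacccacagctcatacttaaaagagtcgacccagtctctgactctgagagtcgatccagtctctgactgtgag
Oas1a, chr5:120907476-120907775, minus strand: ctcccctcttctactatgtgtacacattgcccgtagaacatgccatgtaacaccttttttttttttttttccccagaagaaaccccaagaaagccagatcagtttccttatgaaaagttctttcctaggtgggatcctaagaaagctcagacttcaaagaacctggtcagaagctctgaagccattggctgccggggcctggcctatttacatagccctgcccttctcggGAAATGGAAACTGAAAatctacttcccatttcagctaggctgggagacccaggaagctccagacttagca
Irgm1, chr11:48871371-48871670, minus strand: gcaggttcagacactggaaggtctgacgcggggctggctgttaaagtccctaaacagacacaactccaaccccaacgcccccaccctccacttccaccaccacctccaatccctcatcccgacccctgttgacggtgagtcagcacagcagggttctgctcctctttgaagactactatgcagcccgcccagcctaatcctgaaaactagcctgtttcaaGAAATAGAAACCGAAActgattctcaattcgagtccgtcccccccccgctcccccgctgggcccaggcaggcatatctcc
Oas1h, chr5:120861172-120861471, plus strand: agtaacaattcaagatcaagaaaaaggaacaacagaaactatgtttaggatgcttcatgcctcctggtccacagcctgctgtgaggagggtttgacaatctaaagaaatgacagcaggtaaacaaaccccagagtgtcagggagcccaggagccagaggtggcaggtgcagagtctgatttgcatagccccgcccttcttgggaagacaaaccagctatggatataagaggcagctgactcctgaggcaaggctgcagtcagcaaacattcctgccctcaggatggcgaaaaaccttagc
The Isg15 window held 3 overlapping matches, whose first bases lie 78, 72 and 66 bases before the start site. In Oas1a 2 overlapping matches begin 20 and 14 bases before it, and in Irgm1 2 begin 30 and 24 bases before it. The Oas1h window held no match, which says only that these letters are not in it.

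The promoter table held 27 of the 35 members. This response element motif was found for 14 of these 27 genes, or 51.9%, and for 3.99% of all 27025 genes in the table (3.44% of 32851 windows). The gamma-activated site TTCNNNGAA, which reads the same on both strands, was found for 7 members, or 25.9%, and for 9.55% of all genes, and it may overlap the other motif. A match is a description of letters and not a bound site. Among tested members WT3 was the highest array for 8 of 13 genes with a match (61.5%) and for 9 of 13 without one (69.2%).

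The Oas family held the largest difference and also some of the widest spread between wild-type samples. Oas1h, a member of the Oas1 cluster with little described function, read -9.08, -9.83 and -8.96 in wild type and -7.34, -7.60 and -7.34 in knockout with the first probe above. All 3 knockout values lay above all 3 wild-type values, and the probe was well above background in 0 of 3 wild-type samples. The signal was very low in both groups, with processed intensities of 3.81, 2.10 and 3.98 in wild type and 13.1, 10.1 and 13.6 in knockout, where the local background alone read between 19 and 22.5. Before background subtraction the spot means were 26.0, 25.1 and 26.0 against 33.9, 31.1 and 35.1, which is the same choice of probe by its knockout spots and no further support.

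As a floor for each wild-type array its dimmest signal still counted above background was taken, or the probe's own signal where higher. The knockout mean of Oas1h lay 2.66-fold above this floor. That value rests on the deposited background subtraction and is not a lower bound under other background treatments. The measured means were -9.29 ± 0.47 and -7.43 ± 0.15 (SD, n = 3 each), and the fit gave an adjusted p of 0.191 (limma with Benjamini-Hochberg adjustment over all genes). This probe passed the filter on dim probes only through the knockout group, so it could enter the test only with a difference. The other Oas1h probe was above background on 0 of 6 arrays and read between -10.83 and -10.71. On the slide that holds both genotypes, where KO1 is the only knockout array, the difference was 1.95. After normexp correction of all arrays, whose added offset of 50 shrinks dim differences, it was 0.11.

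Oas1a, an OAS enzyme that is a classical interferon target, read -2.74, -2.65 and -1.79 in wild type and -2.81, -2.21 and -2.54 in knockout. WT3 stood above the other 5 arrays and the groups overlapped. The difference was -0.13 ± 0.29 (SE), and the second Oas1a probe, with -4.60 on WT3 and between -5.46 and -5.17 on the other 5, differed by -0.29. Oas2, a larger OAS enzyme with OAS domains in tandem, read -4.22, -4.23 and -2.93 in wild type and -3.96, -3.44 and -3.76 in knockout. Here WT3 was again highest, WT1 and WT2 were lowest and the knockout samples lay between them, so that the difference of 0.07 ± 0.38 (SE) hides a wild-type range of 1.30.

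Oasl2, an OAS-like protein with ubiquitin-like domains, read -2.73, -2.80 and -1.97 in wild type and -2.88, -2.41 and -2.47 in knockout. As in Oas1a, WT3 was highest and KO1 lowest, and the difference was -0.09 ± 0.25 (SE). Oas3, the largest OAS enzyme, was the member that could not be tested. Its probe read -8.71, -9.54 and -8.31 on the wild-type arrays, 2 of them well above background, and -9.71, -9.27 and -9.34 on the knockout arrays, none well above background (0 of 3). No fold is given for it, because the wild-type mean did not exceed the lowest signal counted as above background.

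**Figure D1:**
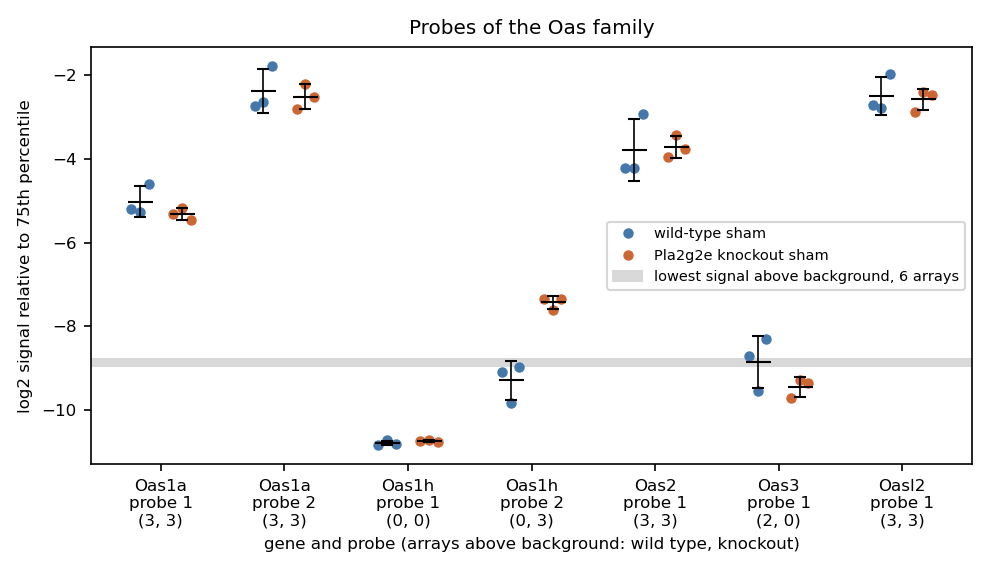
Log2 signal relative to the 75th percentile of the array (y axis) for the 7 Oas probes (x axis, with the number of wild-type and knockout arrays well above background); points are arrays, bars mean ± SD, n = 3 each, and the grey band is the lowest signal counted as above background. The second Oas1h probe on the axis is the first one printed above, with knockout between -7.60 and -7.34 above wild type, and in Oas1a, Oas2 and Oasl2 WT3 stands above all other arrays.

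Other genes of the Oas pathway were read from a list of 9, of which 8 were tested. None passed the adjusted test or an unadjusted p under 0.05 (0 of 8 higher and 0 of 8 lower). The median difference was 0.12, with groups not overlapping in 2 higher genes, Oas1e and Pde12, where 7.6% of all genes were higher in this way. Oas1e, a further Oas1 copy, differed by 0.12 and Pde12, a phosphodiesterase that breaks down the 2'-5' adenylate chains, also by 0.12. Oasl1, a repressor of Irf7 translation, read -4.98, -4.45 and -4.22 in wild type and -4.67, -3.67 and -4.29 in knockout, with overlapping groups. Oas1b, another Oas1 copy, differed by -0.0049 ± 0.072 (SE).

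The 4 transcription factors of the response had differences from -0.16 to 0.04. Stat2, the subunit that gives the type I complex its transactivation domain, read 0.31, 0.26 and 0.72 in wild type and 0.25, 0.29 and 0.25 in knockout. The 3 knockout samples, WT1 and WT2 lay close together and WT3 stood above them. Irf1, induced mainly by interferon gamma, read -0.06, -0.33 and 0.09 against -0.32, -0.17 and -0.30, a difference of -0.16 ± 0.12 (SE) with overlapping groups. Irf9, the DNA-binding subunit of the type I complex, and Irf7, the amplifier of type I interferon production, differed by -0.06 ± 0.11 and 0.04 ± 0.17 (SE). Irf9 read -0.39, -0.30 and -0.05 in wild type and -0.38, -0.32 and -0.20 in knockout. WT3 was the highest array for both genes. A second Irf1 probe was above background on 0 of 6 arrays.

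Isg15 and Usp18 had differences above 0 that were smaller than their SE. Isg15, a ubiquitin-like protein joined to other proteins during the response, lies on chromosome 4 (155573649 to 155573708 in mm9) and read -0.80, -0.67 and -0.14 in wild type. In knockout it read -0.80, -0.05 and -0.38, so KO1 sat with WT1 and WT2 while KO2 stood highest of all arrays. The difference was 0.13 ± 0.25 (SE), and the second Isg15 probe gave 0.19. Usp18, the protease that removes ISG15 and dampens receptor signalling, had the same order in the knockout arrays and a difference of 0.15 ± 0.24 (SE).

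The Ifit proteins bind foreign RNA ends. Ifit1, Ifit2 and Ifit3 differed by 0.01, 0.10 and -0.01, each with overlapping groups. Ifit1 read -3.66 on KO2 and -4.42 on KO1, the highest and the lowest of its 6 values, so its spread within the knockout group was as wide as its whole range. Ifit2 differed from the other two in having its lowest value on WT3 (-3.08). Of the sensors, Ifih1, the MDA5 sensor of long double-stranded RNA, differed by 0.00 ± 0.09 (SE), with -0.35 for its dimmer probe. Zbp1, a sensor of Z-form nucleic acid that can start necroptosis, read -5.60, -5.58 and -4.69 against -5.47, -5.39 and -5.52. WT3 again stood alone, with a difference of -0.17 ± 0.25 (SE) for this probe and 0.39 for the dimmer one.

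Of the 9 other antiviral effectors 2 had a difference above 0 and 7 below 0, from -0.17 to 0.16. Rsad2, the viperin enzyme that makes a chain-terminating nucleotide, read -4.62, -4.68 and -4.12 in wild type and -4.92, -4.24 and -4.77 in knockout. The groups overlapped, with WT3 and KO2 high. Lgals3bp, a secreted glycoprotein, read 0.31, 0.04 and 0.91 against 0.33, 0.38 and 0.30, and Ifi44 ranged from -5.61 on WT1 to -4.44 on WT3. Bst2 (tetherin), Trim30a and Ifi35 also had WT3 as the highest array, with differences of -0.11, -0.05 and -0.01. Rtp4 differed by 0.02 and Xaf1, a pro-apoptotic factor, by -0.01, with 0.12 for its second probe, and Xaf1 was lowest on WT3. Mx2, a dynamin-like GTPase, differed by -0.01 with its brighter probe. Its dim probe differed by -0.73 ± 0.26 (SE), with an adjusted p of 0.376 over all tested probes (limma). This dim probe was above background on 2 of 3 knockout arrays. It passed the filter on dim probes only through the wild-type group, where it was higher, so its difference is no support.

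Ifi27 and Ifi27l2a, small hydrophobic proteins of mitochondria and nuclear membranes, have their probes close together on chromosome 12 and differed in their spread between samples. Ifi27 read 3.01, 2.89 and 3.06 in wild type and 2.94, 2.97 and 3.09 in knockout, with a range of 0.19 over all 6 arrays, the narrowest of the tested members. Ifi27l2a read -1.83, -2.22 and -0.68 in wild type and -1.89, -2.09 and -1.84 in knockout. Without WT3 its difference was 0.08, against -0.37 ± 0.39 (SE) with all arrays, and its wild-type range of 1.54 was the widest of the tested members.

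The interferon-inducible GTPases, which attack vacuoles that hold intracellular pathogens, split into genes above and genes below 0. Irgm1, a regulator of the other immunity-related GTPases, read -0.91, -0.83 and -1.09 in wild type and -0.83, -0.72 and -0.80 in knockout. The knockout values lay above the wild-type values, but by less than 0.01 between WT2 and KO1, and the difference was 0.16 ± 0.09 (SE, adjusted p = 0.493 in limma). Its second probe gave 0.20. Igtp, also called Irgm3, read -0.20, -0.37 and -0.52 against -0.25, -0.13 and -0.05, a difference of 0.22 ± 0.10 (SE) with KO1 inside the wild-type range.

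Gbp2 and Gbp3, guanylate-binding proteins, differed by -0.25 ± 0.12 and -0.07 ± 0.14 (SE). Gbp2 read -1.92, -2.33 and -1.95 in wild type and -2.37, -2.33 and -2.26 in knockout, with WT2 inside the knockout range. Iigp1, an effector GTPase of the same immunity-related family as Irgm1, read -3.31, -3.73 and -3.22 against -3.77, -3.66 and -3.74, again with WT2 inside the knockout range. Its difference was -0.31 ± 0.14 (SE, adjusted p = 0.438 in limma), and -0.10 with its dimmer probe. None of these 5 GTPases passed the test (0 of 5).

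The immunoproteasome subunits replace the standard catalytic subunits and change which peptides are cut for presentation. Psmb10 read 4.04, 3.94 and 3.74 in wild type and 3.97, 4.18 and 4.11 in knockout, with WT3 lowest and KO1 inside the wild-type range. Its difference was 0.18 ± 0.10 (SE). Psmb8 and Psmb9, encoded in the MHC region of chromosome 17, differed by 0.13 ± 0.15 and -0.13 ± 0.17 (SE) and were highest on WT3, unlike Psmb10. A second Psmb9 probe was above background in neither group as a whole and was not tested. The 7 standard beta subunits Psmb1 to Psmb7 differed by -0.03 to 0.04, with 0 of 7 at an unadjusted p under 0.05 in limma.

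**Figure D2:**
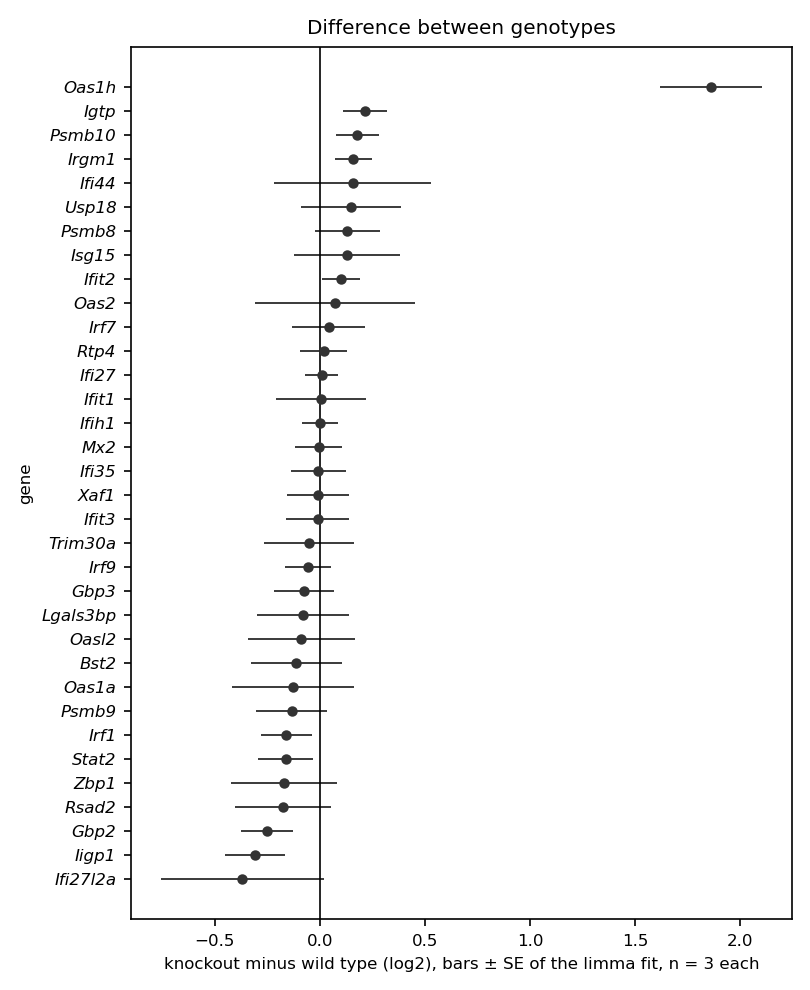
Difference of knockout minus wild type on the log2 scale (x axis) for the 34 tested members (y axis, sorted by difference); points are estimates of the limma fit and bars ± SE, n = 3 each. Oas1h lies at 1.86, and the other members lie between -0.37 and 0.22.

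The wild-type samples differed among themselves in most of the 34 tested members. WT3 stood above both other wild-type samples in 28 of 34 members, or 82.4%, against 37.8% of all genes. It stood over 0.5 above their mean in 14 members, or 41.2%, against 8.13% of all genes. The excess over the mean of WT1 and WT2 was 1.34 for Ifi27l2a (2.54-fold), 1.29 for Oas2 (2.45-fold), 0.97 for Ifi44, 0.91 for Oas1a and 0.89 for Zbp1. It was below 0 for Ifit2, Xaf1, Irgm1, Igtp and Psmb10, in which WT3 was the lowest of the 6 arrays. The median range over the 3 wild-type arrays was 0.52 for the members and 0.25 for all genes, and over the 3 knockout arrays 0.21 and 0.18. These counts describe 1 sample against the others and were looked at after its values were seen.

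**Figure D3:**
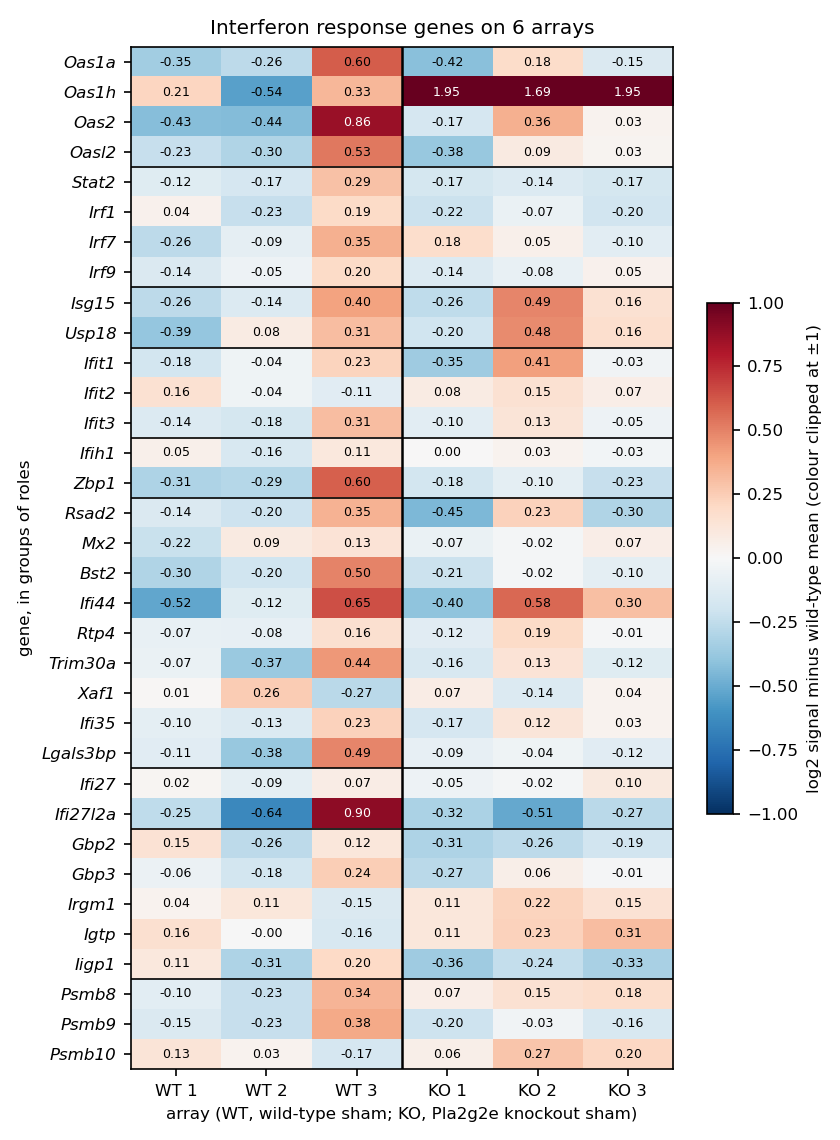
Log2 signal minus the wild-type mean (colour and printed value) for the 34 tested members (rows, grouped by role) on the 6 arrays (columns). Most members are red on WT3 and blue on WT1, WT2 and KO1, while Oas1h is 1.69 to 1.95 above the wild-type mean on all knockout arrays.

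**Figure D4:**
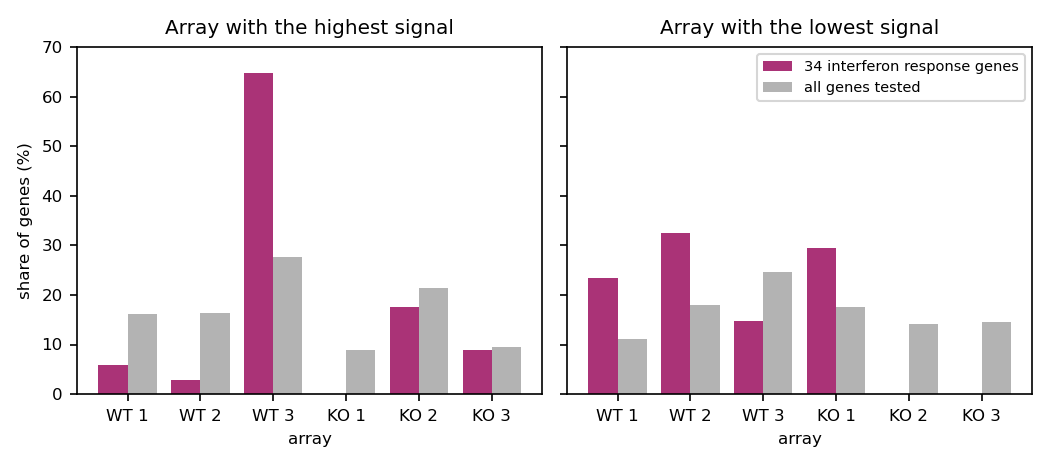
Share of genes in percent (y axis) for which an array (x axis) gave the highest value (left) or the lowest value (right) of the 6, for the 34 tested members and for all 22578 genes. WT3 was highest for 64.7% of members and 27.6% of all genes, and KO2 and KO3 were lowest for 0% of members.

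Within the knockout group KO1 was the lowest array for most members. Relative to the wild-type mean, the member medians were -0.17 on KO1, 0.10 on KO2 and -0.01 on KO3, so KO3 lay between the others. KO2 and KO3, on the slide without wild-type samples, were both above KO1 in 26 of 34 members, or 76.5%, against 44.1% of all genes. The mean of KO2 and KO3 exceeded KO1 by a median of 0.11 over the members and 0.03 over all genes, with 0.84 for Ifi44, 0.58 for Isg15, 0.54 for Ifit1 and 0.52 for Usp18. On the slide that holds both genotypes, KO1 lay below the wild-type mean in 25 of 34 members, or 73.5%, against 58.4% of all genes, where the median difference was -0.17 for the members and -0.03 for all genes. There Isg15, Ifit1 and Ifi44 differed by -0.26, -0.35 and -0.40, against values above 0 with all arrays. Sample and slide cannot be told apart within the knockout group.

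The median difference therefore depended on which samples entered. Without WT3 it was 0.10, with the knockout mean above that of WT1 and WT2 in 28 of 34 members, or 82.4%, against 46.8% of all genes. In that comparison Oas2 differed by 0.50, Ifi44 by 0.48 and Isg15 by 0.33, and 0 members passed the adjusted test in limma, while 3 of 34 had an unadjusted p under 0.05, against 10.8% of all genes. Without KO1, which leaves genotype and slide fully confounded, limma called 61 genes at an adjusted p of 0.05, of which 0 were members. Over the 33 members whose probe was well above background on all arrays, which leaves out Oas1h, the median difference was -0.01.

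Of 10 cell type and region lists 7 were highest on WT3 and 3 were not, and their part in the interferon pattern was not tested. In bulk tissue, fewer cells of a type and less RNA per cell cannot be told apart. Relative to the wild-type mean, the member medians were -0.11, -0.17 and 0.30 in wild type and -0.17, 0.10 and -0.01 in knockout. On WT3 the median was 0.15 for the 41 tested further interferon targets, described below, and -0.02 for the 8 tested other Oas pathway genes. Those Oas pathway genes were highest on KO2, at 0.18. Striatum markers stood at 0.96 on WT3 and between -0.86 and -0.28 on the other 5 arrays. Blood leukocyte markers stood at 0.63 on WT3 and between -0.68 and -0.02 elsewhere, and border macrophage markers at 0.42 and between -0.58 and -0.11. Choroid plexus markers had WT3 at 0.63 and WT1 at 0.38, with the other 4 arrays from -1.19 to -0.02. Meninges and fibroblast markers, with 13 of 13 tested, stood at 0.40 on WT3 and between -0.65 and -0.06 on the others. All 11 striatum and all 10 choroid plexus markers were tested, with summed log2 levels of 4.71 to 6.20 and 2.41 to 4.68 in wild type and of 4.65 to 4.98 and 3.04 to 3.89 in knockout.

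Neuron and astrocyte markers stood near 0 on WT3 and were highest on KO2, at 0.12 and 0.06. Oligodendrocyte markers went the other way from the members on WT3, at -0.37, with 0.44 on WT2 and -0.72 on KO2, and 7 of 8 had a difference between genotypes below 0 (median -0.33).

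Microglia and endothelium markers moved less between arrays than those of striatum. Microglia markers stood at -0.10, -0.03 and 0.15 in wild type and at -0.09, 0.10 and -0.03 in knockout, with 15 of 15 tested. Endothelium markers stood at 0.15 on WT3 and between -0.15 and 0.06 on the others, with 14 of 14 tested. The log2 of the summed signal of the microglia list ranged from 6.32 to 6.52 in wild type and from 6.28 to 6.49 in knockout, and that of the endothelium list from 4.46 to 4.70 in both groups. For border macrophages, with 11 of 12 tested and Cd163 too dim, it ranged from 1.13 to 2.26 in wild type and from 1.11 to 1.27 in knockout. For blood leukocytes, with 16 of 18 tested and Cd3g and Ms4a1 too dim, it ranged from 2.01 to 3.79 and from 2.29 to 2.84. The median difference between genotypes was 0.02 for microglia (8 of 15 above 0), -0.49 for border macrophages (0 of 11), -0.41 for leukocytes (0 of 16) and -0.09 for endothelium (5 of 14). The pair of markers with the highest signal in each list, which need not follow its median, differed by -0.12 and -0.03 for Siglech and Csf1r of microglia, by -0.11 and -0.49 for Stab1 and Pf4 of border macrophages, by -0.75 and -0.06 for S100a9 and Cd4 of leukocytes, and by 0.10 and 0.05 for Ly6c1 and Flt1 of endothelium.

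**Figure D5:**
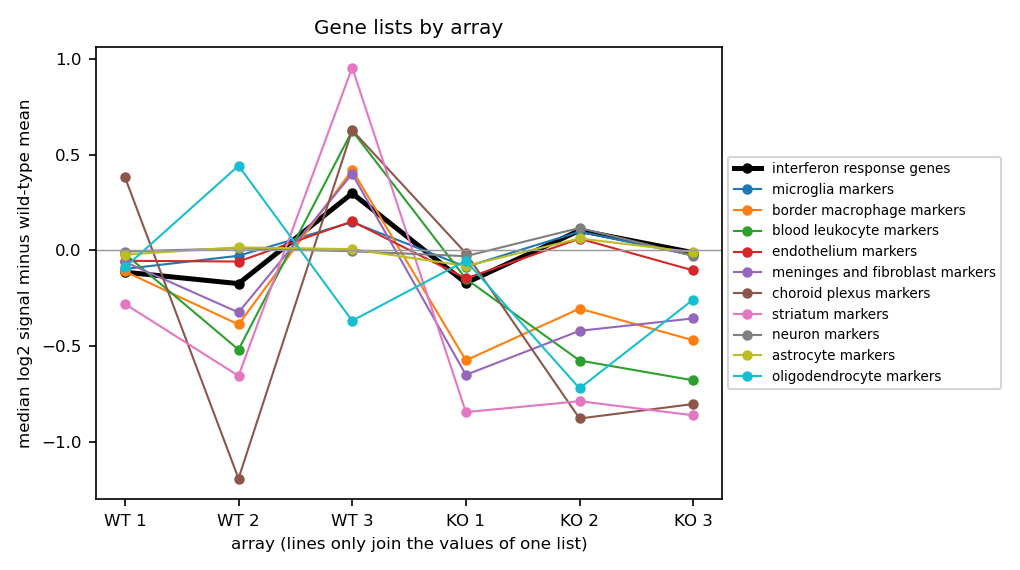
Median log2 signal minus the wild-type mean (y axis) of the interferon response genes and 10 marker lists on the 6 arrays (x axis); lines only join the values of a list. On WT3 the interferon response genes are at 0.30, microglia and endothelium at 0.15 and striatum at 0.96, while neurons and astrocytes are near 0 and oligodendrocytes are at -0.37.

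Genes upstream in the pathway showed no shift between genotypes that passed the test. Of 16 interferon genes on the array 12 were tested, and 0 were higher and 1 lower at an unadjusted p under 0.05 in limma. The lower one, Ifna5, read -5.34, -5.54 and -5.53 in wild type and -5.64, -5.74 and -5.81 in knockout (difference -0.26 ± 0.09, SE). The Ifna genes are near-identical copies, and binding of this probe to the others was not tested. All 18 receptor and signalling genes and all 14 nucleic acid sensors and adaptors were tested, and 0 in either list had an unadjusted p under 0.05 in limma. Their median differences were -0.01 and -0.03.

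Among 45 further interferon targets on the array 41 were tested, 15 with a difference above 0 and 26 below 0, with a median difference of -0.06. At an unadjusted p under 0.05 there were 0 higher, against 3.07% of all genes, and 5 lower, against 9.35%. Parp12, an antiviral mono-ADP-ribosyltransferase, read -3.15, -3.18 and -3.10 in wild type and -3.38, -3.47 and -3.39 in knockout, a difference of -0.27 ± 0.06 (SE, adjusted p = 0.260 in limma). Its wild-type values lay close together, with WT3 little above the others. Ifitm3, a membrane protein that blocks virus entry, read -0.70, -0.78 and -0.42 against -1.08, -1.23 and -0.91. Ifitm1 and Gbp6 differed by -0.55 ± 0.19 and -0.56 ± 0.21 (SE). These 4 genes were named because their groups did not overlap at an unadjusted p under 0.05, all with knockout below wild type. None passed the adjusted test (adjusted p from 0.260 to 0.374 in limma). Over the 41 tested, groups did not overlap in 5 lower genes, against 12.2% of all genes, and in 1 higher gene, against 7.6%.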

How the data were processed

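Total RNA of 6 brain samples was hybridised to 1-colour arrays. Spot intensity values in the deposited files came from Agilent Feature Extraction 12.1.1.1, per the submitters' processing notes and the file headers. The processed intensity had been background-subtracted and detrended by that software, per the file headers, with surrogate values for the dimmest spots, so fold changes of dim probes depend on the background treatment. Groups and replicate numbers came from titles, slides from file headers.

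Non-uniform and outlier spots and 1377 control spots were left out. The non-uniform and outlier spots numbered 68 to 98 on WT1, WT2, WT3 and KO1, 314 on KO2 and 530 on KO3. The slide that holds only knockout arrays thus had more of them. KO2 and KO3 also had the most spots well above background, 85.3% and 84.7%, against 82.0% to 83.5% on the other arrays. The deposited intensities were put on the log2 scale, averaged per probe and set relative to the 75th percentile of the array. A probe was tested when 1 group or both had it well above background on each of its arrays and both groups had 2 values or more (31954 of 39429 probes), and the one with the highest mean stood for its gene. Names followed the GRCm38.p6 RefSeq table by accession (29510 probes), members the files' names. limma 3.58.1 in R 4.3.3 was fitted over 22578 genes without covariates, with Benjamini-Hochberg adjustment at 0.05, two-sided, after the code had been tested on simulated data. An exact permutation test of 3 against 3 samples cannot go below p = 0.1 and was not used.

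All members were named. Values in every sample were given for the Oas genes, for members with groups that did not overlap, for the 8 largest differences and for the 6 highest signals, and genes of other lists were named when groups did not overlap at an unadjusted p under 0.05, at most 4 a list. Values given for Oas1e, Pde12, Oasl1, Oas1b, Irf9, Ifit1, Ifit2, Ifi44 and Isg15 were added after they were seen. Members and lists were chosen with earlier results of these data known. Alternatives were the background correction, scaling, filters, probe choice, slide, replicate number and leaving out each sample.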

Additional observations from a re-analysis of the deposited data

How the results depend on the processing

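Under all 17 alternatives 0 members passed the adjusted test, and the smallest adjusted p of a member was 0.0729, for Oas1h without WT2 (0.0729 to 1.00 for Oas1h over the alternatives). Over all genes 0 passed under each alternative but those that left out a sample, where the count ranged from 0 to 61 (61 without KO1). The members' median difference lay between -0.17 (slide as a fixed block, and also the slide with both genotypes alone) and 0.14 (median centring, which moved all genes to a median of 0.13), and between -0.10 and 0.10 when 1 sample was left out. All of these are smaller in size than the SD of 0.21 between the medians of single samples of a group. That SD is not the error of a difference between groups. Deviations from the group means of same-numbered samples correlated at -0.02, -0.13 and -0.12 over genes, and 0 of 6 samples correlated best with their own number. No pairing by number showed, but with so few samples per group this check cannot exclude one. With the replicate number as a block the median was -0.01, with 0 members past the threshold. There 1 member had an unadjusted p under 0.05 in limma (10.7% of all genes) and 2 had groups that did not overlap (19.8% of all genes).

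Members at an unadjusted p under 0.05 numbered 3 after normexp (12.4% of all genes), 4 after median centring (17.5%) and 0 over probes above background on all arrays (12.09%), and 1 to 4 when a sample was left out (7.26% to 14.8%). Members with groups that did not overlap numbered 7 after median centring (29.7% of all genes), 12 on the slide with both genotypes (46.7% of all genes), and 1 each with outlier spots kept and over probes above background on all arrays. Such members numbered 3 to 8 when a sample was left out (23.9% to 37.2% of all genes). Fewer samples per group make such counts larger by construction. Of 577 differences of members under the alternatives 91 had another sign than with the main setting, in 24 of 34 members, and the largest of these members' main differences was 0.37 in size. The differences of Irgm1, Igtp, Ifit2, Psmb8 and Psmb10 stayed above 0 and those of Gbp2, Iigp1, Irf1 and Stat2 below 0 under every alternative. That of Oas1h also stayed above 0 where it had a value. Its probe had entered through its knockout spots, and over probes above background on all arrays it had no value, so this is no support. All alternatives reuse the same samples. Dim probes, with Oas1h and Oas3 among them, are limited by the signal over background.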
